A study of Homo sapiens with 14 samples.

Results

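The small nucleolar RNA host genes are transcripts, most of them long noncoding RNAs, whose introns carry small nucleolar RNAs (snoRNAs). They were taken here as every gene of the count table whose symbol is SNHG followed by a number, together with GAS5, ZFAS1, DANCR and EPB41L4A-AS1, which gave 32 of 61541 genes. Of these, 28 passed a filter on low counts and were tested. The other 4 (SNHG18, SNHG25, SNHG27 and SNHG28) never exceeded 7 reads in any library. They were measured by RNA sequencing of polyadenylated RNA in Jurkat cells, a human T-cell leukaemia line in which the factor TAL1 is active. The 14 libraries formed 5 groups. APS-2-79, an inhibitor of KSR, was given to the KSRi cells (n = 3), with solvent alone as their control (DMSO, n = 3). The others carried KSR2 guide 1 (n = 3), KSR2 guide 2 (n = 3) or, as the control of both, a guide without target (NT, n = 2). KSR2 holds RAF, MEK and ERK kinases together as a scaffold, and the study asked what its inhibition or loss does to the transcriptome. The labels name the genetic method in conflicting ways (CRISPR knockout, CRISPR interference, a hairpin control), so the groups are called by their guides. The library protocol, worded alike for all 14 libraries, speaks of transduced cells. The sources used here do not give the dose, the treatment time or the guide sequences, or whether guide cells were clones or pools. They also do not call the replicates separate cultures, so the p-values reflect the spread between libraries alone, which may be technical.

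Many snoRNAs, though not all, guide the chemical modification of ribosomal RNA. Among those that do, box C/D snoRNAs direct ribose methylation and box H/ACA snoRNAs direct pseudouridylation. Their relatives in Cajal bodies, the scaRNAs, do the same for spliceosomal RNAs. A snoRNA is trimmed out of the excised intron, while the spliced host RNA has its own fate. Many noncoding host RNAs are exported, loaded with ribosomes on short reading frames and removed by nonsense-mediated decay, and GAS5 was named for its accumulation in growth-arrested cells. Many host genes, like ribosomal protein genes, begin transcription at a C followed by a run of pyrimidines, the terminal oligopyrimidine (TOP) start, which links them to growth signalling. Changes in a host RNA can therefore come from its synthesis or its decay, which counts of polyadenylated RNA do not separate.

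The start sequences are shown first because TOP starts were more frequent among members than among all promoters, though most members with a RefSeq entry lacked one. The following windows run from 50 bases before to 50 bases from the start annotated by RefSeq (GRCh38.p14), and capitals mark the unbroken run of C and T that begins at the start.
SNHG4 (chr5:139274051-139274150, plus strand): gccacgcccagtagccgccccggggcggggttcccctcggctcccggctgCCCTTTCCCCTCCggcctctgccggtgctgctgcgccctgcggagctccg
SNHG12 (chr1:28581824-28581923, minus strand): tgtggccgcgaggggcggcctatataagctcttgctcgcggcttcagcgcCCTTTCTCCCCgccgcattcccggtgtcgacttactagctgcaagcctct
ZFAS1 (chr20:49278592-49278691, plus strand): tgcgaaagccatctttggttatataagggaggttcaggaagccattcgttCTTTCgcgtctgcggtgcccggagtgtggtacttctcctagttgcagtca
SNHG5 (chr6:85678684-85678783, minus strand): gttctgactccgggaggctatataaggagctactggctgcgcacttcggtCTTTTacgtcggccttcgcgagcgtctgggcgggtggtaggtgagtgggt
SNHG1 (chr11:62855836-62855935, minus strand): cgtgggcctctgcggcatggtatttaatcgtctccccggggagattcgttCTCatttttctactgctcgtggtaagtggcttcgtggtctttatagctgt
SNHG29 (chr17:16438937-16439036, plus strand): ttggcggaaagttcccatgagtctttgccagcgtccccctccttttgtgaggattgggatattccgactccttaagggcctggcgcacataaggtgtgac
The run measured 13 bases in SNHG4, 11 in SNHG12, 5 in ZFAS1 and in SNHG5, 3 in SNHG1 and 0 in SNHG29, whose annotated start is not a pyrimidine. A first base C in a run of at least 5 pyrimidines was found at 7 of the 28 members with a RefSeq entry (25%), against 1429 of all 35116 promoters of the table (4.07%). The E-box CACGTG, a motif bound by MYC and MAX, lay in 2 of 28 windows of 300 bases (7.14%), against 7.26% of all promoters, and TGACGTCA, the cyclic AMP response element, in 0 of 28, against 1.85%. Both of these motifs read the same on the 2 strands. SNHG6, SNHG9, SNHG15 and SNHG25 were not matched.

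An annotated start is 1 choice among several. In the GENCODE v29 annotation, 39 of 297 member transcripts (13.1%) began with a C followed by at least 4 pyrimidines, against 20.4% for ribosomal protein genes, 2.5% for other protein-coding genes and 2.38% for other long noncoding RNAs. The first 40 bases of 3 of them are given because the RefSeq start of the same gene is not a C.
GAS5 transcript (chromosome 1, 173867989, minus strand): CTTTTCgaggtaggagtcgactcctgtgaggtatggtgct
SNHG16 transcript (chromosome 17, 76557769, plus strand): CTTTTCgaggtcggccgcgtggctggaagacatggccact
SNHG29 transcript (chromosome 17, 16438975, plus strand): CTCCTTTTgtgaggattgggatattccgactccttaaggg
Transcripts of 1 gene share most of their sequence, and which starts Jurkat cells use was not measured here.

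The annotation placed 139 snoRNA or scaRNA genes of the count table inside the members. A box H/ACA snoRNA of SNHG3 and a box C/D snoRNA of ZFAS1 show what the introns carry. Capitals mark the ACA box in SNORA73B and the C box and D box in SNORD12C.
SNORA73B (chr1:28508559-28508762, plus strand): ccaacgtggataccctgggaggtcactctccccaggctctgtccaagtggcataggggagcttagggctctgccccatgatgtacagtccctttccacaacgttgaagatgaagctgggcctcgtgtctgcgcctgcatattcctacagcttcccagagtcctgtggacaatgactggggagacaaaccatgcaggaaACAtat
SNORD12C (chr20:49278940-49279028, plus strand): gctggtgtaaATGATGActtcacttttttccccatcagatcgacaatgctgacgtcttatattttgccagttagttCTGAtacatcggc
SNHG14, the long transcript of the imprinted Prader-Willi region, carried 84 box C/D genes. In the annotations used, GAS5 carried 10 box C/D genes and 1 box H/ACA gene, none of which was matched to a row of the count table, SNHG1 carried 8 box C/D genes, and most other members carried 1 to 5 genes.

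Library totals ranged from 21710466 to 45897075 counts. The KSRi replicates differed among themselves more than the DMSO replicates did, with a chi-square per degree of freedom across genes of 17.2 to 49.9 for KSRi pairs and 5.83 to 7.78 for DMSO pairs. KSR2 was 53.9-fold lower with guide 1 and 38.5-fold lower with guide 2 than with NT (edgeR quasi-likelihood adjusted p = 6.893e-15 and 1.476e-14), and its log2 change with KSRi over DMSO was −0.11 (edgeR adjusted p = 0.276). The T-lineage markers CD3D, CD3E, CD3G, CD247, LCK, CD28 and PTCRA and the leukaemia factor TAL1 were present in every group. The B-cell gene MS4A1, the myeloid genes LYZ and CSF1R, the erythroid genes HBB, HBA1 and ALAS2, the stromal gene COL1A2 and the epithelial genes EPCAM and KRT19 stayed below 0.227 CPM (counts scaled to a common library size) in every library, and CD14 reached 0.712 CPM. The B-cell gene CD79A averaged 24.0 CPM in KSRi and 22.3 CPM in DMSO cells, and 53.7 CPM with guide 1, 52.2 CPM with guide 2 and 57.3 CPM with NT. The stromal gene COL1A1 ranged from 8.66 to 13.2 CPM in KSRi libraries, above the 5.95 to 6.57 CPM of DMSO libraries, and from 5.86 to 8.18 CPM in guide and NT libraries. The part of these differences in the host gene results was not tested.

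Per kilobase of exon, SNHG29 was the most abundant member in every group. It averaged 168 CPM per kb in KSRi and 106 CPM per kb in DMSO cells. In KSRi cells SNHG16 (33.4 CPM per kb), SNHG6 (32.2) and GAS5 (29.9) came next, and in DMSO cells SNHG16 (44.5), GAS5 (30.8) and SNHG1 (29.7). The summed level of the members was 1692 ± 129 CPM in KSRi and 1765 ± 28.99 CPM in DMSO cells (SD, n = 3 each), a difference smaller than the spread between KSRi libraries. SNHG29 alone made up 37.4% of that sum in KSRi and 22.5% in DMSO cells.

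With the inhibitor, most host genes fell and the most abundant of them rose. Of 28 tested members, 16 were lower and 1 was higher in KSRi than in DMSO cells at an adjusted p under 0.05 (edgeR quasi-likelihood test, Benjamini-Hochberg adjustment over 18963 genes). Over all tested genes the same test called 40.7%, with 18.7% lower and 22% higher. The median log2 change was −0.40 over the members and 0.02 over all tested genes, and the members ranged from −1.78 (SNHG9) to 0.67 (SNHG29). SNHG9 counts among the 16 but passed the filter on low counts through the DMSO libraries, where it was high. In bulk RNA, fewer cells making a transcript and less of it per cell cannot be told apart. Libraries did not overlap for 19 members, of which 17 had every KSRi value below every DMSO value and 2 (SNHG29 and SNHG6) had every KSRi value above. Over all tested genes 46.9% did not overlap. Among the 16 members that fell, KSRi replicate 3 was the lowest KSRi library for 10, replicate 1 for 5 and replicate 2 for 1.

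**Figure D1:**
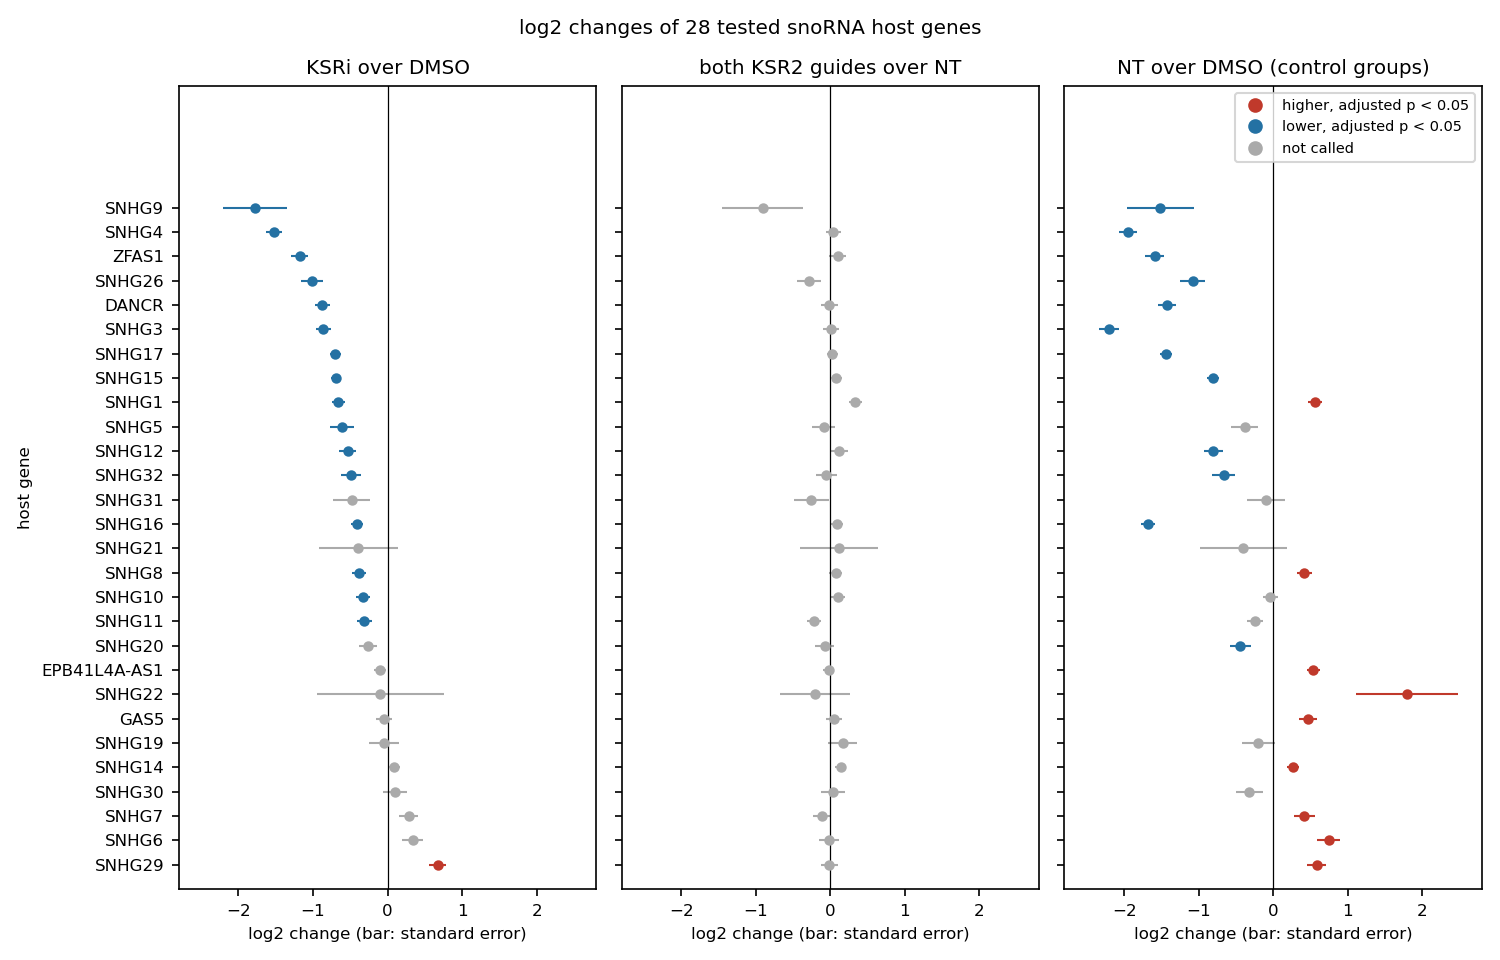
Log2 change of each of the 28 tested host genes (rows, ordered by the change with KSRi) for KSRi over DMSO, both KSR2 guides over NT, and NT over DMSO. Points are edgeR estimates, bars are standard errors, and colours give the call at an adjusted p under 0.05. The left panel has 16 members lower and 1 higher, the middle panel has none called, and the right panel has 12 lower and 9 higher.

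Hosts of box H/ACA snoRNAs included the member with the lowest adjusted p. Positions are those of GENCODE v29 on GRCh38. SNHG4 (ENSG00000281398, chromosome 5, 139274102 to 139284899, plus strand), the host of SNORA74A, had 35.7, 32.2 and 25.1 CPM in KSRi libraries, against 84.6, 98.1 and 85.4 CPM in DMSO libraries. Every KSRi library lay far below every DMSO library. SNHG4 was thus 2.87-fold lower, with a log2 change of −1.52 (SE 0.10, edgeR adjusted p = 1.133e-08).

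SNHG3 (ENSG00000242125, chromosome 1, 28505980 to 28510892, plus strand), the host of SNORA73A and SNORA73B, had 47.1, 49.0 and 42.5 CPM in KSRi libraries, against 78.3, 88.5 and 85.1 CPM in DMSO libraries. The groups were well apart, and the log2 change was −0.86 (SE 0.11, edgeR adjusted p = 8.257e-06). SNHG17 (ENSG00000196756, chromosome 20, 38420588 to 38435353, minus strand), which holds SNORA71 genes, had 54.2, 58.9 and 60.6 CPM in KSRi libraries, against 93.5, 92.7 and 95.4 CPM in DMSO libraries. Replicates were close within each group, and the log2 change of −0.70 had an SE of 0.07 (edgeR adjusted p = 9.079e-07).

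SNHG15 (ENSG00000232956, chromosome 7, 44983023 to 44986961, minus strand), the host of SNORA9, had 66.9, 69.0 and 60.4 CPM in KSRi libraries, against 106, 103 and 108 CPM in DMSO libraries. None of the KSRi libraries came near the DMSO range (log2 change −0.69, SE 0.07, edgeR adjusted p = 1.181e-06). DANCR (ENSG00000226950, chromosome 4, 52712404 to 52720351, plus strand), the host of SNORA26 and a long noncoding RNA described as holding progenitor cells undifferentiated, had 24.7, 29.03 and 27.0 CPM in KSRi libraries, against 49.8, 49.5 and 48.7 CPM in DMSO libraries. The KSRi libraries stood at little over 50% of the DMSO level, a fold of 0.546 (log2 change −0.87, SE 0.11, edgeR adjusted p = 7.181e-06).

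The other H/ACA hosts moved less or were scarce. SNHG8, the host of SNORA24, fell by 0.38 on the log2 scale and SNHG11, the host of SNORA60, by 0.31 (edgeR adjusted p = 0.00277 and 0.0159). SNHG9 had the largest log2 change, −1.78 (SE 0.43, edgeR adjusted p = 0.00333), but rested on 4, 4 and 2 reads in KSRi libraries, against 10, 11 and 16 reads in DMSO libraries. It averaged 0.399 CPM in DMSO cells and 0.134 CPM or less in KSRi, NT and guide cells. It thus passed the filter on low counts through the DMSO libraries, so its entry into the test was tied to its direction. SNHG31 and SNHG7 did not pass the test, with log2 changes of −0.48 and 0.28.

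Among hosts of box C/D snoRNAs, ZFAS1 had the lowest adjusted p. ZFAS1 (ENSG00000177410, chromosome 20, 49278178 to 49295738, plus strand), the antisense partner of ZNFX1 and host of SNORD12, SNORD12B and SNORD12C, had 11.1, 8.37 and 7.95 CPM in KSRi libraries, against 19.3, 20.5 and 22.5 CPM in DMSO libraries. All KSRi values lay below all DMSO values, a 2.26-fold difference with a log2 change of −1.18 (SE 0.11, edgeR adjusted p = 4.819e-07). SNHG1 (ENSG00000255717, chromosome 11, 62851988 to 62855914, minus strand), originally described as UHG, a host whose exons seemed to have no product of their own, had 74.3, 71.1 and 66.3 CPM in KSRi libraries, against 110, 116 and 109 CPM in DMSO libraries. The groups were separate, with a log2 change of −0.66 (SE 0.09, edgeR adjusted p = 1.922e-05).

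SNHG26 (ENSG00000228649, chromosome 7, 22854178 to 22861579, plus strand), the host of SNORD93, had 8.82, 6.48 and 4.67 CPM in KSRi libraries, against 13.3, 14.2 and 13.4 CPM in DMSO libraries. Its KSRi libraries were spread widely but stayed under the DMSO libraries (log2 change −1.01, SE 0.15, edgeR adjusted p = 5.344e-05). SNHG16 (ENSG00000163597, chromosome 17, 76557766 to 76565348, plus strand), the host of the SNORD1 genes, had 156, 195 and 187 CPM in KSRi libraries, against 247, 233 and 235 CPM in DMSO libraries. Its fall was smaller, 1.33-fold, with no overlap (log2 change −0.41, SE 0.08, edgeR adjusted p = 6.106e-04).

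The remaining members that fell were SNHG5, SNHG12, SNHG32 and SNHG10, by 0.61, 0.53, 0.49 and 0.33 on the log2 scale (edgeR adjusted p = 0.00618, 0.0012, 0.00871 and 0.0089). SNHG12 carries snoRNAs of both classes, SNHG10 carries the scaRNA gene SCARNA13, and SNHG32, also known as C6orf48, is annotated as protein-coding. SNHG5 had 12.4, 8.59 and 5.96 CPM in KSRi libraries, against 14.9, 14.4 and 12.7 CPM in DMSO libraries. Its highest KSRi library lay just under its lowest DMSO library, and when the fit held the KSRi and DMSO libraries alone its edgeR adjusted p was 0.0530.

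**Figure D2:**
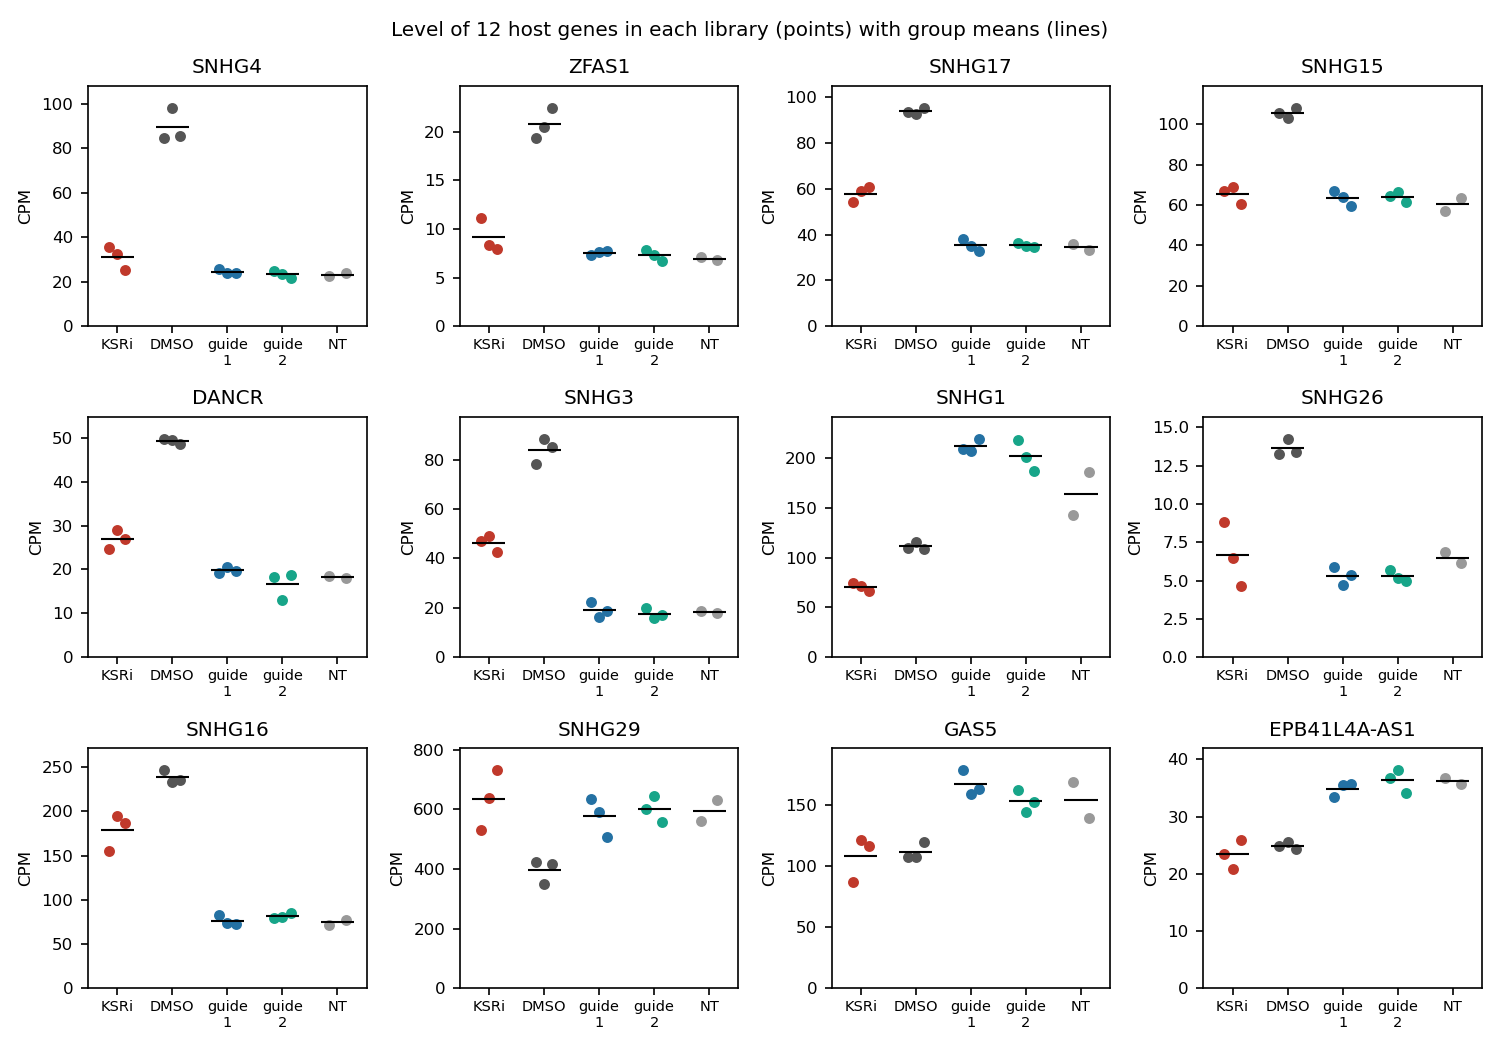
CPM of 12 host genes in each library (points) with group means (lines), each panel with its own axis from 0. For SNHG4, ZFAS1, SNHG17, SNHG15, DANCR, SNHG3, SNHG26 and SNHG16 the DMSO libraries stand above all others, and SNHG29 is lowest in DMSO libraries.

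SNHG29 was the member that rose. SNHG29 (ENSG00000175061, chromosome 17, 16438822 to 16478678, plus strand), the host of SNORD49A, SNORD49B and SNORD65, had 530, 637 and 733 CPM in KSRi libraries, against 423, 351 and 417 CPM in DMSO libraries. The lowest KSRi library exceeded the highest DMSO library, giving a level 1.59-fold that of DMSO cells, or a log2 change of 0.67 (SE 0.11, edgeR adjusted p = 1.946e-04). SNHG6 and SNHG7 leaned upward without passing the test. SNHG6 had 33.4, 38.6 and 48.6 CPM in KSRi libraries, against 32.9, 31.2 and 30.9 CPM in DMSO libraries (log2 change 0.34, edgeR adjusted p = 0.0600). SNHG7 had 59.0, 70.3 and 97.0 CPM in KSRi libraries, against 60.0, 64.1 and 61.2 CPM in DMSO libraries (log2 change 0.28, edgeR adjusted p = 0.0830). In all 3 of these genes KSRi replicate 3 was the highest and replicate 1 the lowest KSRi library. Without KSRi replicate 1 the counts became 3 higher and 17 lower, with SNHG6 (edgeR adjusted p = 0.00821), SNHG7 (0.00171) and SNHG31 (0.0113) added.

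GAS5, the host with the best known link to growth arrest, did not pass the test with the inhibitor. GAS5 (ENSG00000234741, chromosome 1, 173863900 to 173868882, minus strand) had 87.1, 122 and 117 CPM in KSRi libraries, against 107, 108 and 120 CPM in DMSO libraries. The groups overlapped, and the log2 change of −0.04 had a 95% interval of −0.272 to 0.182 (edgeR adjusted p = 0.770). EPB41L4A-AS1 (ENSG00000224032, chromosome 5, 112160526 to 112164276, plus strand), the host of SNORA13, had 23.5, 20.7 and 25.9 CPM in KSRi libraries, against 24.9, 25.6 and 24.3 CPM in DMSO libraries. It overlapped too, with a log2 change of −0.10 and a 95% interval of −0.274 to 0.0744 (edgeR adjusted p = 0.356). SNHG14 had a log2 change of 0.09 (edgeR adjusted p = 0.310), and SNHG19, SNHG20, SNHG21, SNHG22 and SNHG30 also did not pass.

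The snoRNAs themselves were barely sampled in these libraries of polyadenylated RNA. Of the 139 hosted genes, 112 had 0 counts in all libraries and 3 were tested, all from H/ACA hosts that fell. SNORA73B, in SNHG3, had 1.54, 1.11 and 0.967 CPM in KSRi libraries, against 4.65, 4.46 and 3.83 CPM in DMSO libraries, and was 3.49-fold lower (edgeR adjusted p = 4.556e-05). SNORA71B, in SNHG17, had 1.58, 1.41 and 1.67 CPM in KSRi libraries, against 2.13, 2.91 and 3.31 CPM in DMSO libraries (log2 change −0.89, edgeR adjusted p = 0.00155). Neither snoRNA overlapped between the groups. SNORA74D, in SNHG4, had 8, 0 and 0 reads in KSRi libraries, against 9, 12 and 19 reads in DMSO libraries (edgeR adjusted p = 0.0188). It passed the filter on low counts through the DMSO libraries, with at most 0.268 CPM in any other library. Its entry into the test was thus tied to its direction. Reads of snoRNA genes may come from unspliced host RNA or from near-identical copies of the same snoRNA family, which these counts do not separate, so the values are uncertain.

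No host gene passed the test with the KSR2 guides. With both guides over NT, 0 of 28 members passed the test (edgeR, lowest adjusted p = 0.964), 2 had an unadjusted p under 0.05 (SNHG1 and SNHG11), and DESeq2 also called 0. Over all tested genes 0.0158% were called in this comparison, 0.00527% for guide 1 alone, 0.0105% for guide 2 alone and 0.00527% between the guides, and no member was called in any of these, with 1 member at an unadjusted p under 0.05 in each of the 3 and 0 by DESeq2. The median log2 change with both guides was 0.02 over members and −0.00439 over all genes. The 95% interval of the change lay within −1 to 1 for 25 of 28 members, with a median half-width of 0.24.

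Single members show how closely the guide groups lay together. SNHG4 had 25.5, 23.7 and 24.0 CPM with guide 1 and 24.7, 23.6 and 21.7 CPM with guide 2, against 22.6 and 23.7 CPM with NT. ZFAS1 had 7.30, 7.66 and 7.70 CPM with guide 1 and 7.82, 7.32 and 6.69 CPM with guide 2, against 7.09 and 6.77 CPM with NT. Both genes overlapped between guides and NT, with log2 changes of 0.04 and 0.10 for both guides. GAS5 had 179, 159 and 163 CPM with guide 1 and 162, 145 and 153 CPM with guide 2, against 169 and 139 CPM with NT, again overlapping.

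DANCR had 19.2, 20.5 and 19.8 CPM with guide 1 and 18.2, 13.1 and 18.8 CPM with guide 2, against 18.6 and 18.1 CPM with NT. Guide 2 replicate 2 was the low library, and the log2 change of guide 2 over guide 1 was −0.25 (unadjusted p = 0.0336, edgeR adjusted p = 1.000). SNHG29 had 636, 591 and 509 CPM with guide 1 and 601, 644 and 556 CPM with guide 2, against 560 and 630 CPM with NT. EPB41L4A-AS1 had 33.4, 35.4 and 35.6 CPM with guide 1 and 36.8, 38.2 and 34.2 CPM with guide 2, against 36.8 and 35.6 CPM with NT. Both overlapped between guides and NT, with log2 changes of −0.01 and −0.02 for both guides. SNHG3, SNHG15, SNHG16, SNHG17 and SNHG26 had log2 changes of 0.01, 0.08, 0.09, 0.03 and −0.29 for both guides, none past the test.

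SNHG1 and SNHG11 were nearest to a difference. SNHG1 had 209, 207 and 220 CPM with guide 1 and 218, 201 and 187 CPM with guide 2, against 143 and 186 CPM with NT. All 6 guide libraries lay above NT, but NT replicate 2 was just below the lowest of them (log2 change 0.33, SE 0.09, edgeR adjusted p = 0.964). SNHG11 had a log2 change of −0.22 (unadjusted p = 0.0323, edgeR adjusted p = 0.989). SNHG9, at 1 to 6 reads per library with guides or NT, had the widest interval, −2.05 to 0.231.

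The difference between the inhibitor effect and the guide effect was tested directly, as KSRi minus DMSO less the mean of the guides minus NT. It passed for 13 of 28 members, 12 with a more negative and 1 (SNHG29) with a more positive effect of KSRi, against 28.6% of all tested genes. The values ran from −1.56 for SNHG4 (edgeR adjusted p = 1.507e-06) to 0.69 for SNHG29 (0.00427). SNHG5, SNHG9, SNHG11 and SNHG32, lower with KSRi, did not pass this test (edgeR adjusted p = 0.0961, 0.411, 0.655 and 0.105). The inhibitor and the guides also have different controls, and any difference in handling cannot be told apart from the kind of interference.

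The control groups themselves stood far apart. In NT over DMSO, 12 members were lower and 9 higher (edgeR), 75% of the 28, beside 65.8% of all tested genes (31.2% lower and 34.6% higher). The median log2 change was −0.35 over members and 0.04 over all genes, with a range of −2.20 (SNHG3) to 1.79 (SNHG22, at 0.303 CPM in NT and 0.0762 CPM in DMSO cells). SNHG22 passed the filter on low counts through guide and NT libraries, with 0.0957 CPM in KSRi cells. SNHG9, among the 12 lower, passed it through the DMSO libraries. The entry of both into the test was thus tied to their direction. The SNHG22 call was lost without either NT replicate (edgeR adjusted p = 0.0671 without the first and 0.127 without the other), without DMSO replicate 1 (0.0757) and without DMSO replicate 2 (0.0506). SNHG3 had 18.8 and 17.7 CPM in NT libraries, against 78.3, 88.5 and 85.1 CPM in DMSO libraries (edgeR adjusted p = 2.52e-10). SNHG16 had 71.9 and 76.7 CPM in NT libraries, against 247, 233 and 235 CPM in DMSO libraries, a log2 change of −1.68 (SE 0.10, edgeR adjusted p = 1.62e-10). SNHG17 had 36.0 and 33.3 CPM in NT libraries, against 93.5, 92.7 and 95.4 CPM in DMSO libraries (log2 change −1.44, edgeR adjusted p = 1.73e-10). NT and DMSO libraries did not overlap for any of these 3, nor for 79.3% of all tested genes. By their labels the NT cells carried a guide without target and the DMSO cells received solvent, and any other difference in handling cannot be told apart from these.

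The KSRi and NT contrasts share the DMSO libraries, which ties their calls together, so their values are set side by side only. Of the 16 members lower with KSRi, 11 were lower, 2 higher and 3 not called in NT. SNHG29 was higher in both, with log2 changes of 0.67 in KSRi and 0.58 in NT (edgeR adjusted p = 5.892e-04 in NT). In KSRi over DMSO and in NT over DMSO, the log2 changes were −1.52 and −1.95 for SNHG4, −1.18 and −1.59 for ZFAS1, −0.87 and −1.43 for DANCR, and −0.41 and −1.68 for SNHG16. SNHG1 went down in one and up in the other, with −0.66 in KSRi and 0.56 in NT (edgeR adjusted p = 6.57e-05 in NT), and so did SNHG8, with −0.38 in KSRi and 0.42 in NT (edgeR adjusted p = 0.00106 in NT). GAS5 and EPB41L4A-AS1, not called with KSRi, were higher in NT by 0.46 and 0.54 (edgeR adjusted p = 0.00241 and 4.91e-05), and SNHG6, SNHG7, SNHG14 and SNHG22 were also called higher in NT. Whether a member differs between these contrasts was not tested. Without NT replicate 1, which leaves NT with 1 library assumed to vary like the others, the NT count was 6 higher and 10 lower. GAS5 (edgeR adjusted p = 0.0720), SNHG7 (0.0945), SNHG9 (0.0569), SNHG20 (0.111) and SNHG22 were then no longer called.

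**Figure D3:**
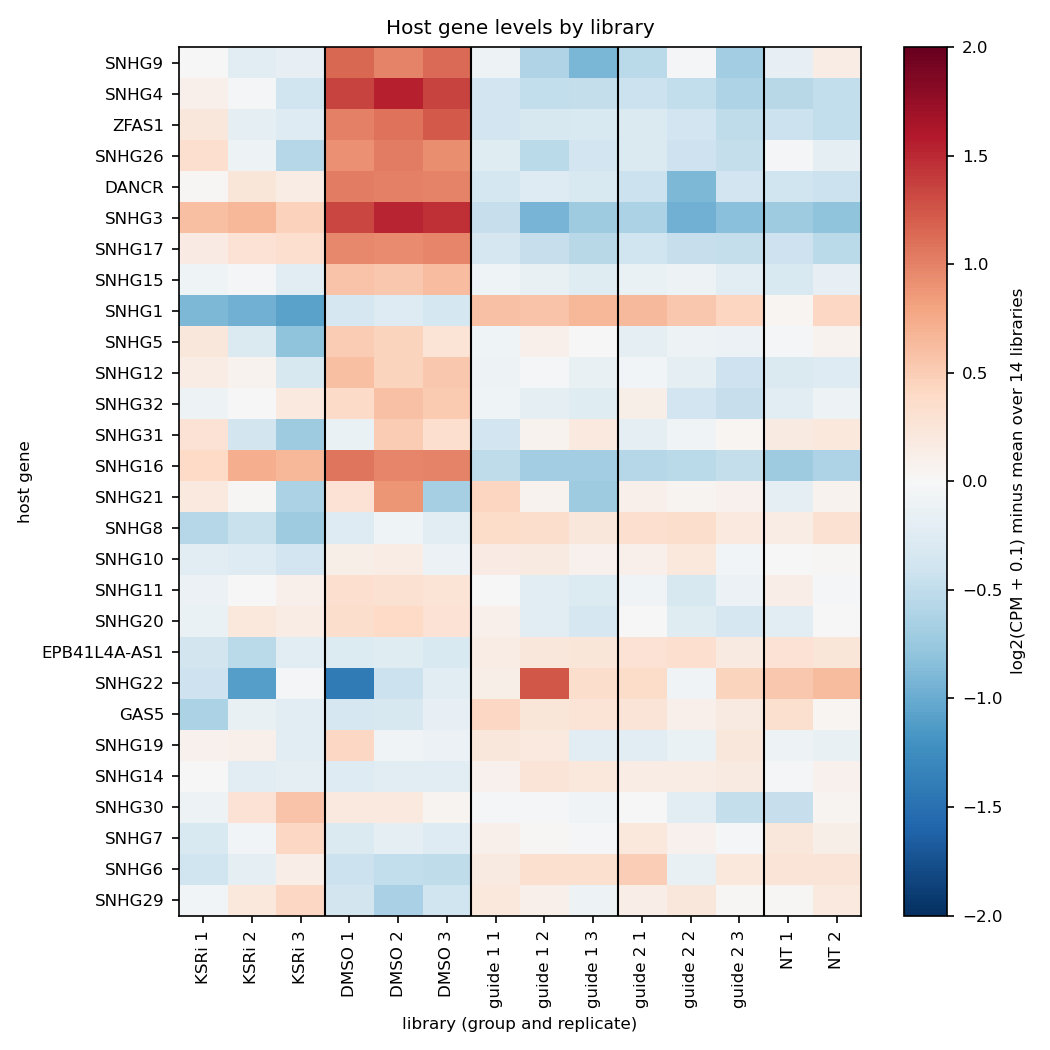
Heat map of the 28 tested host genes (rows) in 14 libraries (columns, grouped as KSRi, DMSO, guide 1, guide 2 and NT), coloured by log2(CPM + 0.1) minus the mean of the row, with colours ending at −2 and 2. DMSO libraries are high for SNHG4, SNHG3, ZFAS1 and DANCR, KSRi libraries are low for SNHG1 and SNHG8, and the 8 guide and NT libraries look alike in most rows.

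By the class of RNA they carry, 8 of 11 tested hosts of H/ACA snoRNAs only were lower and 0 higher with KSRi, with a median log2 change of −0.69. The 8 include SNHG9, which passed the filter on low counts through the DMSO libraries. Over all tested genes 18.7% were lower and 22% higher. Of 11 hosts of C/D snoRNAs only, 6 were lower and 1 was higher, with a median of −0.41. Of 4 hosts of scaRNAs, 1 (SNHG10) was lower, and of the 2 hosts of both classes SNHG12 was lower and GAS5 was not called. Differences between the classes were not tested. By start, 5 of 6 tested members with a RefSeq start at a C in a run of at least 5 pyrimidines were lower (SNHG4, SNHG12, SNHG32, SNHG5 and ZFAS1) and SNHG19 was not called. Among 19 members with another RefSeq start, 9 were lower and 1 higher. With the GENCODE transcripts the counts were 9 lower and 1 higher of 13 members that have a TOP-like transcript, and 7 lower and 0 higher of 15 that have none, at medians of −0.41 and −0.39. SNHG29 and GAS5 are among the 13, so a TOP-like start was found both in members that fell and in those that did not.

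The mRNAs of proteins that bind and assemble snoRNAs were mostly lower as well. Of 20 listed genes of snoRNP core and assembly proteins, 16 were lower and 0 higher in KSRi than in DMSO cells (edgeR). Their median log2 change was −0.48, and 18.7% of all tested genes were lower. NOP58, a core protein of C/D particles, averaged 114 CPM in KSRi and 239 CPM in DMSO cells (log2 change −1.07, edgeR adjusted p = 1.915e-06). DKC1, the pseudouridine synthase of H/ACA particles and itself a snoRNA host, averaged 178 CPM in KSRi and 312 CPM in DMSO cells (log2 change −0.81, edgeR adjusted p = 2.068e-07). SHQ1, the assembly chaperone of DKC1, and NOLC1, a nucleolar phosphoprotein that binds these particles, changed by −0.80 and −0.75. In NT over DMSO 18 of the 20 were lower, with a median of −1.26, against 31.2% lower over all tested genes.

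Protein-coding hosts of snoRNAs are given apart by what they encode. Of 119 tested hosts that are not ribosomal protein genes, 58 were lower and 21 higher with KSRi, with a median log2 change of −0.17. That is 66.4% called, against 40.7% of all tested genes (18.7% lower and 22% higher). GNL3, the nucleolar GTPase nucleostemin, had the lowest adjusted p among them (log2 change −0.996, edgeR adjusted p = 4.378e-08), with the ribosome biogenesis factors WDR43 (−0.89) and TSR1 (−0.72) close behind. Of 26 tested ribosomal protein hosts, 6 were higher and 1 lower, with a median of 0.21. Their share called, 26.9%, was below the 40.7% of all tested genes. RPL13A averaged 1119 CPM in KSRi and 797 CPM in DMSO cells (log2 change 0.49, edgeR adjusted p = 6.122e-04), and RPL12 and RPL13 changed by 0.43 and 0.36. The host that fell was the RPL17 row, at 1.31 CPM in KSRi and 2.32 CPM in DMSO cells.

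Other mRNAs with TOP starts were called in both directions. Of 19 tested, 7 were higher and 3 lower with KSRi, with a median log2 change of 0.15 (52.6% called, against 40.7% of all tested genes). TPT1, the translationally controlled tumour protein, changed by 0.61, the elongation factor EEF2 by 0.45 and the initiation factor EIF3F by 0.42, while NPM1, the nucleolar chaperone nucleophosmin, changed by −0.76 (edgeR adjusted p = 3.332e-07). Of 19 regulators of mTORC1 and of TOP mRNAs, 3 were higher and 5 lower, with a median of −0.02. That is 42.1% called, near the 40.7% of all tested genes. The 4 with the lowest p were SESN2 (1.71), DDIT4 (1.06), DEPTOR (1.05) and the initiation factor EIF4G1 (−0.48).

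Factors of nonsense-mediated decay and of the exon junction complex clear many host RNAs, and their mRNAs were lower or not called. Of 20 tested, 9 were lower and 0 higher with KSRi, with a median log2 change of −0.21. That is 45% called, near the 40.7% of all tested genes, of which 18.7% were lower and 22% higher. UPF3B changed by −0.71, the kinase SMG1 by −0.59, the junction protein MAGOHB by −0.58 and the cap-binding protein NCBP1 by −0.42, with the highest edgeR adjusted p of the 4 at 8.191e-04. In the MYC and MAX network, 5 of 15 tested genes were higher and 3 lower (53.3% called, against 40.7% of all tested genes). MYC averaged 407 ± 32.9 CPM in KSRi and 568 ± 17.8 CPM in DMSO cells (SD, n = 3 each; log2 change −0.48, edgeR adjusted p = 2.898e-05). The MYC antagonists MXD4, MXD1 and MXD3 changed by 0.99, 0.82 and 0.67. MYC stood at 116 CPM with NT and did not differ detectably with both guides (log2 change −0.07, edgeR adjusted p = 0.989). Its part in the host gene levels was not tested.

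Other long noncoding RNAs were called in both directions. Of 3503 tested, 613 were higher and 487 lower with KSRi, with a median log2 change of 0.06. That is 31.4% called, below the 40.7% of all tested genes. Of 58 tested snoRNA and scaRNA genes, 22 were lower and 0 higher, with a median of −0.80. Their share called was 37.9%, against 18.7% lower and 22% higher over all tested genes. The same limits hold as for the hosted ones. Scarce rows can also pass the filter on low counts through the group where they are high, which ties their direction to the filter. SNORA22B, for example, averaged 0.168 CPM in KSRi, 0.561 CPM in DMSO and 0.249 CPM in NT cells. How much of the split between lower and higher comes from this was not tested. With both guides over NT, each of these lists had 0 genes called other than 1 long noncoding RNA.

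**Figure D4:**
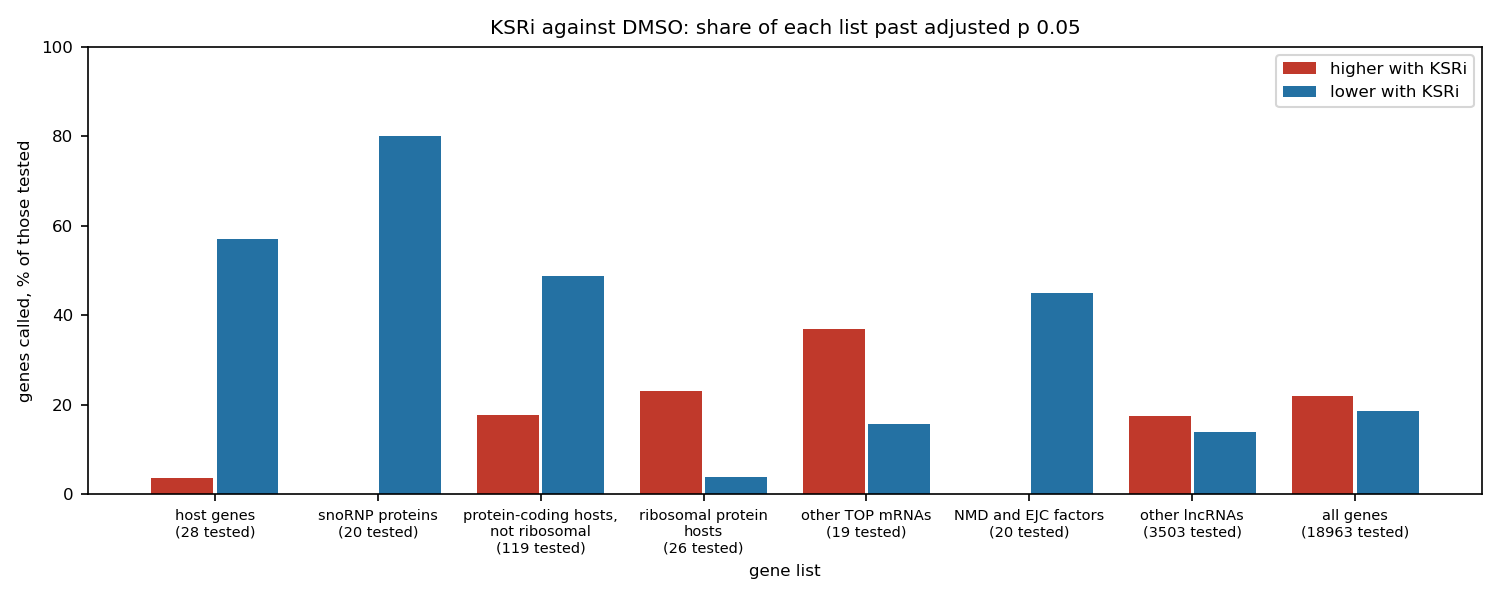
Share of each gene list, in percent of the genes tested, that was higher or lower in KSRi than in DMSO cells at an edgeR adjusted p under 0.05. The genes of snoRNP proteins have the tallest bar for lower genes (80%). The host genes have 16 of 28 lower and 1 higher, and all 18963 tested genes have 22% higher and 18.7% lower.

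Several members overlap other genes, and without a known strand setting reads of an overlap could fall to either. Of 25 tested neighbours, 9 were higher and 6 lower with KSRi, with a median log2 change of 0.16 (60% called, against 40.7% of all tested genes). SIL1, antisense to SNHG4 and sharing 118 exon bases with it, averaged 26.0 CPM in KSRi and 15.4 CPM in DMSO cells and so rose by 0.74 where SNHG4 fell. A MATR3 row that shares 626 exon bases with SNHG4 stood at 0.104 CPM in KSRi and 0.172 CPM in DMSO cells. ZNFX1, antisense to ZFAS1 with 249 shared bases, fell by 0.44 (66.2 CPM in KSRi and 89.8 CPM in DMSO cells), and RCC1, which shares 242 bases and its strand with SNHG3, fell by 0.34.

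SLC3A2, an amino acid transporter subunit whose start lies 188 bases from that of SNHG1 on the other strand, rose by 0.42 where SNHG1 fell (edgeR adjusted p = 0.00967). LRRC75A, antisense to SNHG29 with 452 shared bases, rose with it by 0.44 but stood at 3.90 CPM in KSRi and 2.88 CPM in DMSO cells, far below SNHG29. EPB41L4A shares 1659 bases with EPB41L4A-AS1 and stood at 0.453 CPM in KSRi and 0.113 CPM in DMSO cells. ZBTB37, opposite GAS5, had a log2 change of 0.02 (edgeR adjusted p = 0.862). RPS2, whose start lies 99 bases from that of SNHG9, rose by 0.60 (edgeR adjusted p = 0.00988).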

How the data were processed

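The deposited values are raw counts for each Ensembl gene, whole numbers without scaling. The GRCh38 build, STAR 2.7.11b and DESeq2 1.42.1 are named, per the submitters' processing notes. How reads were assigned to genes (program, strand, annotation release) is not stated in the labels, which affects overlapping, antisense and near-identical genes.

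Samples were grouped by the treatment in the labels. The fit used R 4.3.3 and edgeR 4.0.16, with TMM factors, filterByExpr on the 5 groups (18963 genes), 1 mean per group over all 14 libraries, quasi-likelihood tests and Benjamini-Hochberg adjustment over all tested genes at 0.05. The common biological coefficient of variation was 8.60%. CPM values use TMM-scaled library sizes, and CPM per kb divides them by the union of exons in GENCODE v29. Library totals of 21710466 to 45897075 counts set the counting precision. The fitting procedure was tested on simulated counts with changes in KSRi libraries alone, in far fewer genes than were called here. Changes as wide as those in the data were not simulated.

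The members and gene lists were chosen with earlier results of these data known. Values in every library are given for the 8 lowest adjusted p in each direction with KSRi, up to 5 in other contrasts, and GAS5, ZFAS1, DANCR, EPB41L4A-AS1 and SNHG1. Up to 4 genes per list are named by lowest p, and of the neighbours those of members given by library, of which some scarce or unnamed genes are left out. Per-library values of SNHG5, SNHG6, SNHG7 and SNHG9 were added after their values were seen. Hosted snoRNA positions came from GENCODE v29, with RefSeq genes added where they lie inside a member without use of strand. Promoter windows came from RefSeq GRCh38.p14, with 250 bases before and 50 bases from each start. Replicates exceeded sampling noise in their differences, so all 14 were kept. As alternatives, DESeq2 1.42.0, RLE size factors, no filter on low counts, at least 5 CPM in at least 3 libraries, fits without the other groups, a replicate block, and leaving out each library were tried.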

Additional observations from a re-analysis of the deposited data

Results flagged for a closer look

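For 13 members the effect of the inhibitor (KSRi over DMSO) and the effect of the guides (both guides over NT) differed by the edgeR test of the difference itself. The difference in log2 change was −1.56 for SNHG4, −1.28 for ZFAS1, −0.99 for SNHG1, −0.87 for SNHG3, −0.86 for DANCR, −0.77 for SNHG15, −0.72 for SNHG17, −0.72 for SNHG26, −0.65 for SNHG12, −0.50 for SNHG16, −0.45 for SNHG8 and −0.44 for SNHG10, all more negative with the inhibitor. It was 0.69 for SNHG29, more positive with the inhibitor. For SNHG1 the guide change (0.33, not called) and the inhibitor change (−0.66) point in opposite directions, and both add to its difference. The calls of SNHG8, SNHG10 and SNHG26 were lost when single libraries were left out. Without NT replicate 1 the edgeR adjusted p was 0.0874 for SNHG8 and 0.0801 for SNHG10. Without NT replicate 2 it was 0.0999 for SNHG26 and 0.0578 for SNHG10. Without KSRi replicate 2 it was 0.0501 for SNHG26, and without DMSO replicate 2 it was 0.0559 for SNHG10. No sample group had the 4 libraries needed to look for a single library far from the others.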

How the results depend on the processing

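There were 20 alternatives, of which those without a library served only the comparisons that include its group. In those run for it, every count of changed members, both directions together, stayed within 1.5 times its value. No called member changed direction. The members higher with KSRi were 3 rather than 1 with no filter on low counts and without KSRi replicate 1. Between KSRi and DMSO the count was 16 to 20, with 17 to 20 when a library was left out. For the difference of effects it was 11 to 16, also the range with a library left out. Between NT and DMSO it was 16 to 23, with 16 to 21 when a library was left out. With the guides it stayed at 0. The uncalled change of GAS5 with KSRi changed sign in 2 alternatives. SNHG6 (0.32, edgeR adjusted p = 0.00534) and SNHG7 (0.26, 0.0190) were called higher with KSRi when no filter was applied. In NT over DMSO, SNHG9 was not called by DESeq2 (adjusted p = 0.0655) and SNHG20 not under the filter of 5 CPM (edgeR adjusted p = 0.0629), which shifted the median of all genes by 0.14. SNHG14 was not called in NT over DMSO without NT replicate 2 (edgeR adjusted p = 0.0896).

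Replicate numbers did not pair the libraries: 1 of 26 same-numbered pairs had a correlation of deviations over 0.1 (range −0.18 to 0.11). With a replicate block the counts were 17 for KSRi over DMSO, 13 for the difference of effects, 22 for NT over DMSO and 0 with the guides. Depth limits SNHG9, SNHG21 and SNHG22, all under 1 CPM, and the hosted snoRNAs.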
